A study of Mus musculus with 11 samples.

Results

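Serine is made in cells from a glycolytic intermediate by the enzymes of Phgdh, Psat1 and Psph, and the hydroxymethyltransferases of Shmt1 and Shmt2 exchange it with glycine while loading folate with a carbon unit. The Serinc genes (Serinc1 to Serinc5) encode multipass membrane proteins named for a proposed role in incorporating serine into membrane lipids; in human cells SERINC3 and SERINC5 are known for lowering the infectivity of retroviruses. Serine feeds phosphatidylserine, sphingolipids, glycine and the folate cycle, all of which fat tissue uses. Here these 10 genes were followed in epididymal fat, a visceral depot, through every probe set annotated to 1 of them alone. There were 29 such probe sets among 45101, 14 of Serinc genes and 15 of the enzymes; 3 further probe sets shared between a member and another gene symbol were not used.

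Fat was taken from male C57BL/6 mice aged 3 months, kept on standard chow. Wild-type mice (B1+/+) gave 4 arrays and mice without the kinin B1 receptor (B1-/-), the G protein-coupled receptor encoded by Bdkrb1, gave 4. Fat rescue mice (aP2B1-B1-/-) gave 3; they carry the same deletion plus a receptor transgene named for aP2, another name of Fabp4, whose promoter drives transgenes in fat cells and is also active in macrophages. So the deletion is shared by 7 arrays, and the receptor is present by label in wild type everywhere and in fat rescue in fat alone. The labels call the arrays of a genotype biological replicates without saying more of the animals, and p-values measure the spread between these arrays.

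The signal is a linear fluorescence intensity in arbitrary units, scaled by the authors to a trimmed mean of 200 in every array, with array medians from 41.3 to 48.8; the number of arrays limits the precision. Signals of different probe sets are not comparable as amounts of RNA. A principal component with 27.3% of the variance set 2 arrays apart, wild-type array 1 at -45.4 and fat rescue array 1 at -34.1, against -15.6 to 26.5 elsewhere. The tissue label was borne out by 8 measured adipocyte markers of 10 listed, all above the array median in every array, while the epididymis markers Lcn5, Adam7 and Rnase10 lay below it in every array. In whole tissue, fewer cells of a type and less RNA per cell cannot be told apart.

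The group of genes was selected on signal differences already seen in these arrays, namely low means of Serinc3 and Phgdh outside wild type and of Serinc4 in fat rescue. The differences of these 3 genes are therefore given as descriptions with no test, while the other genes carry the adjusted p of a limma fit over all 12709 measured genes. Of the 29 probe sets, 26 passed the brightness filter, and 9 of the 10 genes had at least 1 that did; Serinc2 had none.

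Serinc3 had the lowest means, relative to wild type, of the abundantly detected members in both lines without the endogenous receptor. Its brightest probe set, 1455550_x_at, read 4590.0, 6814.5, 5935.4 and 6087.3 in the wild-type arrays. The knockout arrays read 4284.1, 3266.5, 3576.8 and 2950.5, and the fat rescue arrays 2937.2, 2716.0 and 3218.9. All 7 arrays of both lines lay below all 4 wild-type arrays, with knockout array 1 the nearest to wild type and wild-type array 1 the lowest of its group. The mean signal was 5857 ± 928 for wild type (SD, n = 4), 3519.5 ± 570.3 for knockout (n = 4) and 2957 ± 252 for fat rescue (n = 3). On the log2 scale knockout was below wild type by -0.73 ± 0.13 (SE), a ratio of 0.601, and fat rescue by -0.97 ± 0.14, a ratio of 0.509. Fat rescue read -0.24 ± 0.14 against knockout, and those groups overlapped. The x_at in the name of 1455550_x_at is the array maker's mark for probes that can bind other transcripts. That limit also holds for the percentages of its signal given below.

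Serinc3 was measured by 6 probe sets, and they differed in how far the lines lay from wild type. The probe set with the widest gap, 1434548_at, read 411.5, 785.7, 802.0 and 820.7 in wild type. It read 326.6, 52.1, 59.0 and 103.3 in the knockout arrays and 107.8, 76.7 and 113.3 in fat rescue. The groups did not overlap, but array 1 of wild type and array 1 of knockout lay between the remaining wild-type arrays and the remaining arrays of the lines. The log2 difference from wild type was -2.75 ± 0.44 in knockout and -2.79 ± 0.47 in fat rescue, ratios of 0.149 and 0.144. Expressed as a percentage of 1455550_x_at within the same array, its signal was 8.97% to 13.5% in wild type, 1.60% to 7.62% in knockout and 2.82% to 3.67% in fat rescue, so the 2 probe sets changed unequally between genotypes. Array 1 held the highest knockout value.

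The other 4 Serinc3 probe sets pointed the same way with smaller or less even gaps. For 1417815_a_at the log2 difference was -0.62 ± 0.18 in knockout and -0.89 ± 0.20 in fat rescue. The wild-type arrays read 3123.2, 6239.5, 4105.2 and 4106.7 and the knockout arrays 2982.6, 2460.8, 3357.4 and 2390.3, which overlapped through wild-type array 1. For 1456080_a_at the differences were smaller, -0.44 ± 0.12 and -0.53 ± 0.13, and its percentage of 1455550_x_at was higher in fat rescue (40.4% to 47.7%) than in wild type (31.3% to 34.2%). For 1417816_s_at they were -1.03 ± 0.28 and -1.13 ± 0.31. The dimmest, 1448847_at, read below the array median in all 7 arrays of the lines, at -0.49 ± 0.40 and -1.13 ± 0.43, so those values are no exact sizes. Counted over the 6 probe sets, knockout lay wholly below wild type in 2, where 1.55% of all kept probe sets did so, and fat rescue in 6, where 3.01% did. Both lines together lay below wild type in 2 of 6, where 0.559% of kept probe sets did. All these shares belong to contrasts that led to the choice of the gene and support nothing by themselves. The positions of the probe sets along the Serinc3 transcripts are not given in the sources used here, so these unequal gaps cannot be assigned to exons or transcript ends.

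**Figure D1:**
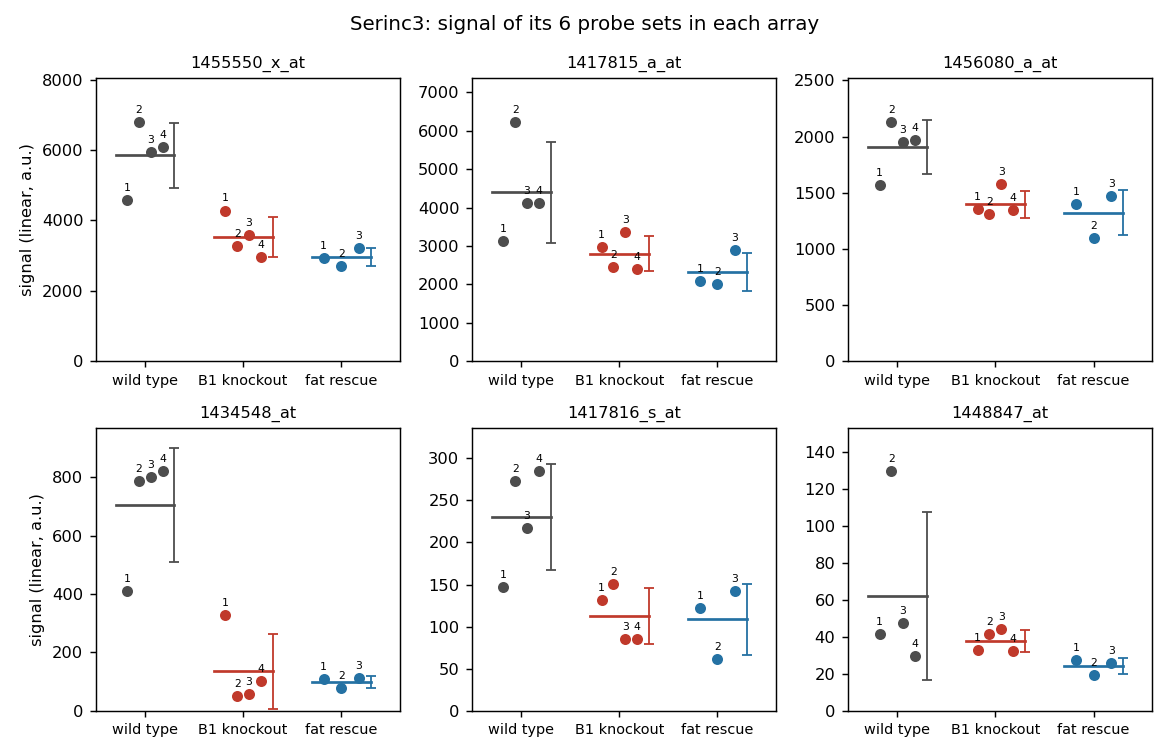
Signal (linear, arbitrary units, axes from 0) of the 6 Serinc3 probe sets in each array, by genotype; points are arrays with their replicate number, horizontal lines group means and bars 1 SD. In 1455550_x_at and 1434548_at all 7 arrays of the 2 lines lie below all 4 wild-type arrays, and in 1434548_at wild-type array 1 (411.5) and knockout array 1 (326.6) lie between the rest.

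Phgdh, which encodes the dehydrogenase of the first step of serine synthesis, had lower means in both lines than in wild type. Its brightest probe set, 1454714_x_at, read 5142.7, 5950.5, 5657.5 and 4665.4 in wild type. It read 4078.6, 3948.0, 3566.4 and 3456.4 in the knockout arrays and 3784.1, 4289.9 and 3634.0 in fat rescue. Every array of both lines was below every wild-type array, and knockout and fat rescue overlapped. The means were 5354 ± 568 (SD, n = 4), 3762 ± 298 (n = 4) and 3903 ± 344 (n = 3). The log2 difference from wild type was -0.51 ± 0.10 (SE) in knockout, a ratio of 0.704, and -0.45 ± 0.10 in fat rescue, a ratio of 0.730, while fat rescue differed from knockout by 0.05 ± 0.10.

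All 4 Phgdh probe sets had lower means in both lines, over a narrow range. In knockout the differences were -0.51, -0.48 (1437621_x_at), -0.41 (1426658_x_at) and -0.41 (1456584_x_at), and 3 of the 4 did not overlap with wild type. In fat rescue they were -0.45, -0.44, -0.21 and -0.48, and 2 of the 4 did not overlap. Unlike the Serinc3 probe set 1434548_at, none of the 3 dimmer Phgdh probe sets separated the genotypes when expressed as a percentage of the brightest within an array; 1456584_x_at, for example, ranged over 23.7% to 37.0% (wild type), 28.3% to 39.2% (knockout) and 28.1% to 33.8% (fat rescue). The names of all 4 end in x_at, the array maker's mark for probes that can bind other transcripts, as does that of 1455550_x_at of Serinc3. A further 2 probe sets, not used, are annotated to Phgdh together with a predicted gene.

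**Figure D2:**
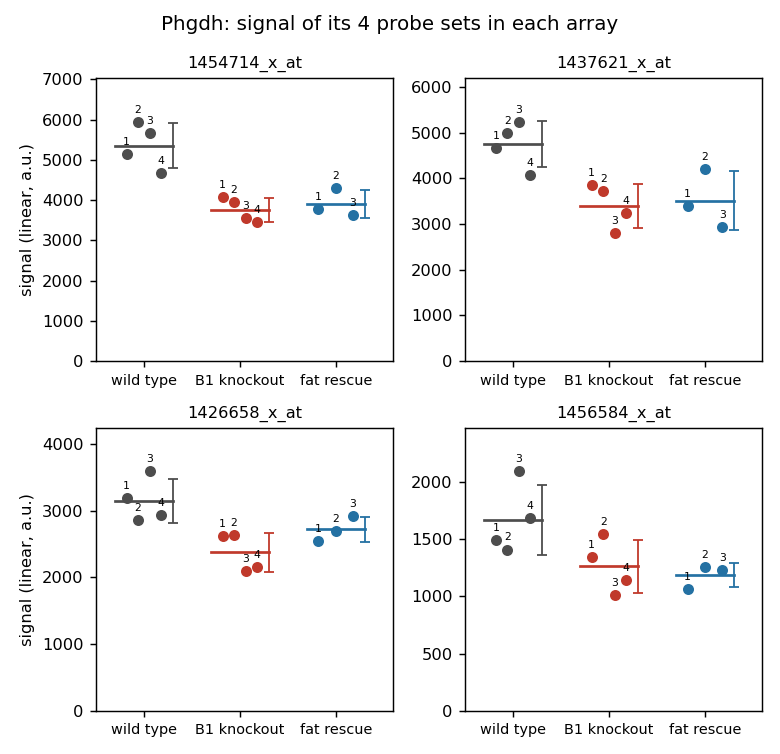
Signal (linear, arbitrary units, axes from 0) of the 4 Phgdh probe sets in each array, by genotype; points are arrays with their replicate number, horizontal lines group means and bars 1 SD. In 1454714_x_at the wild-type arrays lie from 4665.4 to 5950.5 and the 7 arrays of both lines from 3456.4 to 4289.9.

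For Serinc3 and Phgdh, all 7 arrays of both lines lay below every wild-type array with the brightest probe set. For Psat1, the next gene of the pathway, the groups overlapped with its brightest probe set. The 250 bases before the annotated start of each are therefore shown, to set their proximal promoters side by side. Capitals mark matches, on either strand, to the GC box (GGGCGG), the CCAAT box (CCAAT), the half-site of the cAMP response element (TGACG) and the composite element of ATF4 (TGATGNAAN), the factor of the amino acid response. The sequences are those of RefSeq on GRCm38.p6, 5′ to 3′, all from the minus strand, at chr2:163645144-163645393 for Serinc3, chr3:98339970-98340219 for Phgdh and chr19:15925060-15925309 for Psat1, for which the outer of 2 annotated starts was taken.
Serinc3: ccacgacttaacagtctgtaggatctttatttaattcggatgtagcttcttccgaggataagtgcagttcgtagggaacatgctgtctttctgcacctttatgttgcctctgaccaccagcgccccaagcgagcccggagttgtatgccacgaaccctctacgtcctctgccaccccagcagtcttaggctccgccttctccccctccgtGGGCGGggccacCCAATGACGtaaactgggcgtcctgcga
Phgdh: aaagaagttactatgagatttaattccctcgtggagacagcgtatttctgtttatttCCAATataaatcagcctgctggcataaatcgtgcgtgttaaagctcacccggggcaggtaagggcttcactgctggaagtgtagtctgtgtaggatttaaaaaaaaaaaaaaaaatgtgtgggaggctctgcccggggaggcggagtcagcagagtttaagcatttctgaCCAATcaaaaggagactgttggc
Psat1: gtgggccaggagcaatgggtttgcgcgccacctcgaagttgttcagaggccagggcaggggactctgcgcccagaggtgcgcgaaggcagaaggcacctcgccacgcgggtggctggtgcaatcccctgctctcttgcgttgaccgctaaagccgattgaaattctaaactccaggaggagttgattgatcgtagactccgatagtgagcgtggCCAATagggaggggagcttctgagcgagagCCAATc

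A CCAAT box was the single motif found in all 3 windows, with 1 match in Serinc3 and 2 each in Phgdh and Psat1. So it did not set Serinc3 and Phgdh apart from Psat1. It occurred in 33.8% of all 32851 promoter windows of that length. The Serinc3 window also held 1 GC box (32.7% of all windows) and 1 cAMP response half-site (17.8%), the latter overlapping its CCAAT box; Phgdh and Psat1 held neither. The ATF4 element, present in 3.44% of all windows, was in none of the 9 member genes with a promoter entry; Serinc1 had no entry. The absence says only that these letters are not in these windows.

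Serinc4 was near or below the array median in every group and lowest in fat rescue. Its brighter probe set, 1420010_at, read 36.6, 41.4, 48.3 and 37.3 in wild type and 48.9, 52.2, 46.7 and 55.5 in knockout. It read 20.5, 13.3 and 26.5 in fat rescue, below all 8 other arrays. Only 2 wild-type and 3 knockout arrays, and no fat rescue array, were above the median of their own array, so the log2 differences of -1.39 ± 0.30 (fat rescue minus knockout) and -1.07 ± 0.30 (fat rescue minus wild type) are no exact sizes. The second probe set, 1426035_at, read 2.30 to 27.4 over all arrays and ran the other way, at 0.91 ± 0.92 and 1.17 ± 0.92.

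The remaining Serinc genes did not separate the genotypes. Serinc1, a widely expressed member, had mean signals with 1415838_at of 2642 ± 287 for wild type (SD, n = 4), 2580 ± 158 for knockout (n = 4) and 2691 ± 105 for fat rescue (n = 3). Its log2 difference was -0.03 ± 0.09 in knockout against wild type (SE; adjusted p = 0.952 with limma; 95% interval -0.22 to 0.16) and 0.03 ± 0.09 in fat rescue against wild type (adjusted p = 0.954; interval -0.17 to 0.24). The 3 dimmer Serinc1 probe sets gave differences from wild type between -0.13 and 0.03 in knockout and between -0.14 and 0.22 in fat rescue, and the groups overlapped in all. Serinc5 read 89.5 ± 12.2, 98.4 ± 27.7 and 92.3 ± 11.5, and differed from wild type by 0.10 ± 0.20 in knockout (adjusted p = 0.926; interval -0.34 to 0.54) and 0.05 ± 0.22 in fat rescue (adjusted p = 0.975 with limma; interval -0.43 to 0.52). Serinc2 read from 1.60 to 41.1, below the array median in every array, so no difference of it can be read.

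**Figure D3:**
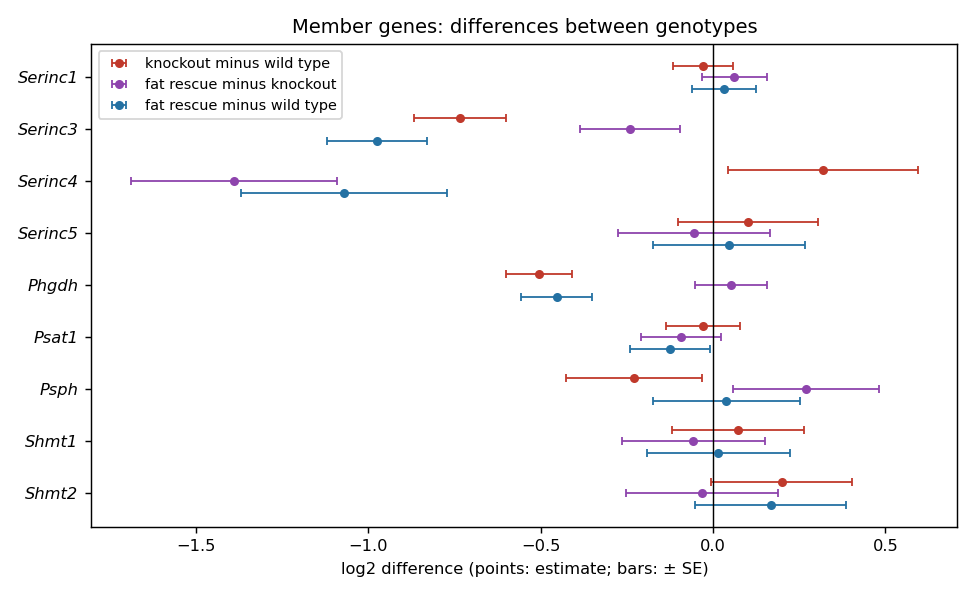
Log2 differences between genotypes of the 9 member genes with a kept probe set (brightest probe set of each; points are estimates of the fit over all arrays and bars 1 SE). Serinc3 and Phgdh lie below 0 in both comparisons with wild type (-0.73 and -0.97, -0.51 and -0.45) and Serinc4 in both comparisons of fat rescue; these 3 genes were chosen for such differences.

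Of the enzymes after Phgdh, none passed. Psat1, which encodes the aminotransferase of the second step, read 1944.3, 1574.6, 1776.9 and 1772.9 in the wild-type arrays, 1475.9, 1863.8, 1998.2 and 1614.6 in the knockout arrays and 1681.4, 1734.5 and 1448.8 in fat rescue. The groups overlapped, at -0.03 ± 0.11 in knockout against wild type (adjusted p = 0.962 with limma; interval -0.26 to 0.20) and -0.12 ± 0.12 in fat rescue against wild type (adjusted p = 0.812; interval -0.37 to 0.13). These intervals, of the brightest Psat1 probe set 1451064_a_at, do not reach the -0.51 and -0.45 of Phgdh in the same contrasts. Those of the dimmer 1454607_s_at do, at -0.07 (interval -0.55 to 0.42) and -0.28 (interval -0.81 to 0.24). With that probe set the fat rescue arrays lay wholly below wild type. The difference between the genes was not tested. Psph, the phosphatase that releases serine, read 294 ± 62.5, 249.5 ± 45.6 and 305.5 ± 90.6, with a difference of -0.23 ± 0.20 in knockout (adjusted p = 0.805; interval -0.66 to 0.20) and 0.04 ± 0.21 in fat rescue (adjusted p = 0.976; interval -0.42 to 0.50). The knockout interval of Psph holds a difference as large as that of Phgdh in the same contrast, and the fat rescue interval does not. Rescue array 2 was the highest of all 11 arrays for Psph, at 405.0.

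The serine hydroxymethyltransferases did not pass either. Shmt1, the cytosolic enzyme, read 86.8 ± 10.9, 92.3 ± 20.1 and 87.9 ± 14.1 with 1425177_at, and differed from wild type by 0.07 ± 0.19 in knockout (adjusted p = 0.948; interval -0.34 to 0.49) and 0.01 ± 0.21 in fat rescue (adjusted p = 0.992; interval -0.43 to 0.46). Shmt2, the mitochondrial enzyme, read 145 ± 38.9, 162 ± 17.9 and 159.9 ± 31.1 with 1455084_x_at, and differed by 0.20 ± 0.20 (adjusted p = 0.838; interval -0.24 to 0.64) and 0.17 ± 0.22 (adjusted p = 0.869; interval -0.31 to 0.64). Its probe sets disagreed, since 1455985_x_at gave 85.4 ± 13.9 (wild type), 63.4 ± 6.04 (knockout) and 55.3 ± 11.4 (fat rescue), a difference of -0.42 ± 0.21 and -0.63 ± 0.23. For fat rescue against knockout every gene of this group that was tested, Serinc1, Serinc5, Psat1, Psph, Shmt1 and Shmt2, had an adjusted p of 0.998, and the differences lay between -0.09 and 0.27.

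**Figure D4:**
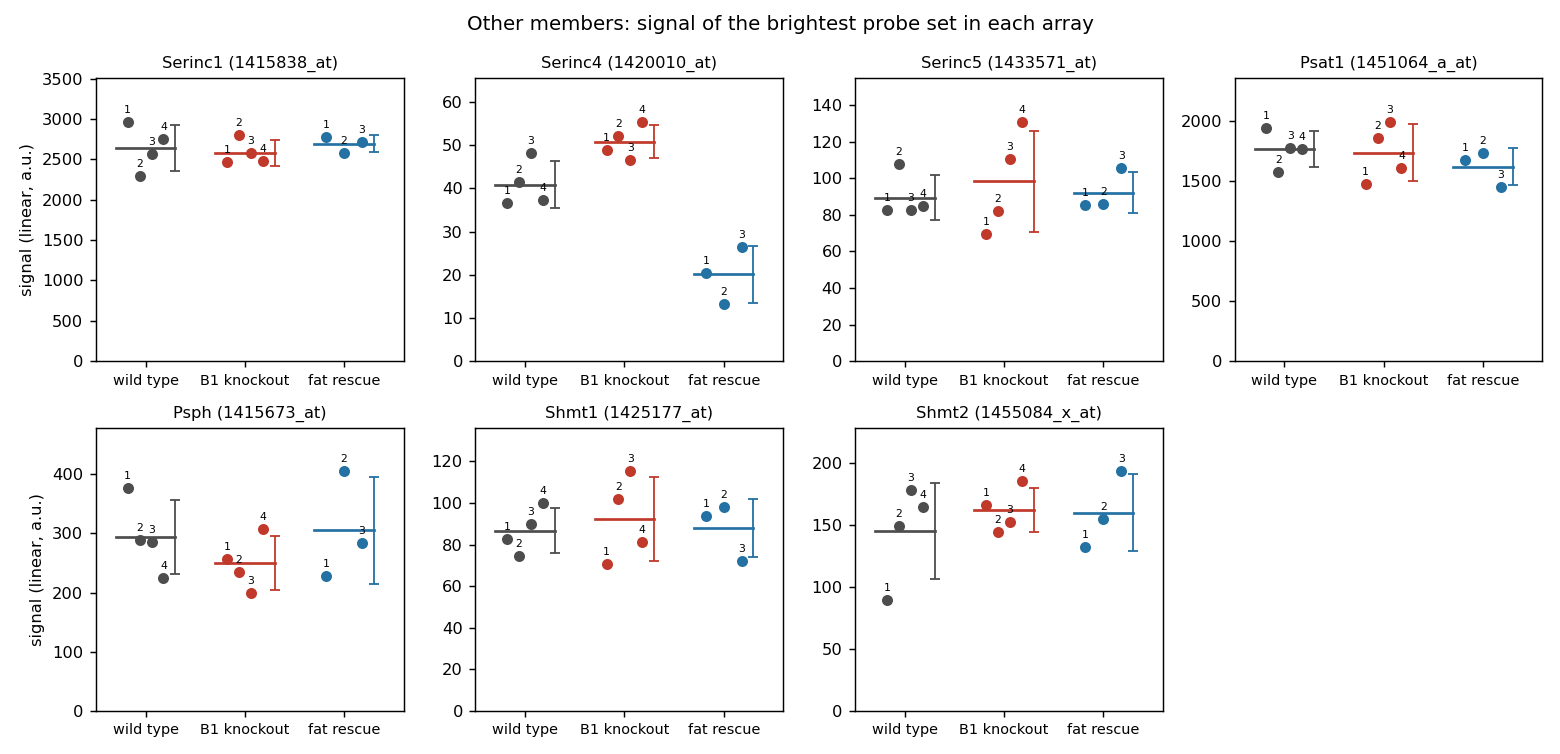
Signal (linear, arbitrary units, axes from 0) of the brightest probe set of 7 further member genes in each array, by genotype; points are arrays with their replicate number, horizontal lines group means and bars 1 SD. The groups overlap for all but Serinc4, whose 3 fat rescue arrays (13.3 to 26.5) lie below the 8 others.

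Of the 6 members that carry a test, 0 passed the adjusted threshold of 0.05 with limma in knockout against wild type, where 0.0393% of all genes did, 0 in fat rescue against wild type (0.0157%) and 0 in fat rescue against knockout (0%). At an unadjusted p under 0.05 the counts were also 0 of 6. The median log2 difference of the 9 measured members, the 3 chosen ones included, was -0.03 in knockout against wild type, beside 0.02 over all 12709 genes, 0.01 beside 0.03 in fat rescue against wild type and -0.06 beside 0.01 in fat rescue against knockout. Of the 26 kept probe sets of members, 5 lay wholly below wild type in knockout (1.55% of all kept probe sets), 11 in fat rescue (3.01%) and 3 in both lines together (0.559%); fat rescue lay wholly below knockout in 2 (2.46%), 1 each of Serinc3 and Serinc4. These counts include the 3 genes chosen for such differences, with several probe sets of the same gene, so they support nothing by themselves. Outside Serinc3, Serinc4 and Phgdh, 0 of 15 lay wholly below wild type in knockout and 2 of 15 in fat rescue, namely 1454607_s_at of Psat1 and 1455985_x_at of Shmt2. None lay wholly above wild type in either line, where 2.62% (knockout) and 5.38% (fat rescue) of all kept probe sets did, and none of fat rescue above knockout, where 2.62% did. Both comparisons with wild type share the same 4 wild-type arrays, so their likeness is not independent.

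Means of cell type markers and a measure of RNA quality, that of Actb, differed between the genotypes too. All 10 macrophage markers had higher means than in wild type in knockout (median log2 difference 0.25) and in fat rescue (0.39), and 0 of 10 passed. All 8 adipocyte markers had lower means in knockout (median -0.23), as did 7 of 8 in fat rescue (median -0.12), and 0 of 8 passed. The summed signal of the macrophage markers was 14918 to 21799 in wild type, 16637 to 34204 in knockout and 22530 to 26690 in fat rescue. Knockout array 1 gave the 34204, and the other knockout arrays, at 16637 to 20453, lay within the wild-type range. For 6 mesothelial markers the sum was 2380 to 3792, 3192 to 3935 and 3870.5 to 4595. The sum of the adipocyte markers overlapped between all genotypes (71197 to 95347, 66831 to 89388 and 68608 to 85205). For Actb, the 3′ probe set over the 5′ one, a measure of RNA integrity, gave 1.65 to 1.83 (wild type), 1.53 to 1.69 (knockout) and 1.47 to 1.56 (fat rescue). The same ratio for Gapdh overlapped between all genotypes, at 0.918 to 1.029, 0.865 to 1.001 and 0.918 to 0.95. The part of these measures in the low Serinc3 and Phgdh signals of both lines and the low Serinc4 signals of fat rescue was not tested. Without wild-type array 1 and fat rescue array 1, which stood apart, Serinc3 lay at -0.85 (knockout) and -1.08 (fat rescue) relative to wild type, and Phgdh at -0.52 and -0.45.

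The genes that carry serine onward were examined as 6 lists of related steps. In all 6 lists and in all 3 comparisons, 0 genes passed in either direction, beside the shares of all genes above. Among 15 genes of serine and neutral amino acid transport, 7 had lower means in knockout than in wild type and 8 in fat rescue (medians 0.10 and -0.00). Slc1a5, a neutral amino acid exchanger, read 9321 ± 835 in wild type, 8074.5 ± 912.3 in knockout and 7746.5 ± 483.2 in fat rescue (-0.21 ± 0.10 and -0.26 ± 0.11; adjusted p = 0.690 and 0.579 with limma). Sfxn3, of the sideroflexin family of mitochondrial carriers, differed by 0.25 ± 0.17 and 0.57 ± 0.19 (adjusted p = 0.767 and 0.500), and Slc38a4 was dim, at 19.6 ± 11.9, 38.0 ± 12.1 and 24.9 ± 11.9 (adjusted p = 0.686 and 0.882).

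Among 14 measured genes of the folate cycle and glycine cleavage, 8 had lower means in knockout than in wild type and 7 in fat rescue, with medians of -0.00 and -0.04. Aldh1l1, the cytosolic formyltetrahydrofolate dehydrogenase, read 3029.5, 1904.9, 1927.9 and 1722.0 in wild type. It read 1595.0, 1813.6, 1693.1 and 1411.1 in the knockout arrays and 1493.9, 1241.5 and 869.3 in fat rescue. The fat rescue arrays were all below the wild-type arrays, but the difference of -0.84 ± 0.20 did not pass (adjusted p = 0.319; knockout -0.37 ± 0.18, adjusted p = 0.704). Ahcy (0.09 and 0.20; adjusted p = 0.833 and 0.618) and Dld (-0.16 and -0.24; adjusted p = 0.791 and 0.660) did not pass either.

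Of 13 measured genes of sphingolipid synthesis, 6 had lower means in knockout (median 0.13) and 7 in fat rescue (median -0.01). Sptssa, a small subunit of the serine palmitoyltransferase that joins serine to a fatty acid, differed by 0.17 ± 0.07 and 0.08 ± 0.08 (adjusted p = 0.683 and 0.830). Cers2, a ceramide synthase, differed by -0.27 ± 0.11 and -0.12 ± 0.12 (adjusted p = 0.683 and 0.827), and Ugcg, the glucosylceramide synthase, by 0.13 ± 0.12 and 0.55 ± 0.13 (adjusted p = 0.833 and 0.320). For phosphatidylserine synthesis and use, 4 of 7 genes had lower means in each line (medians -0.02 and -0.12). Ptdss2, a phosphatidylserine synthase, read -0.14 ± 0.09 and -0.15 ± 0.10 (adjusted p = 0.752 and 0.707), Pisd, the decarboxylase that turns phosphatidylserine into phosphatidylethanolamine, -0.15 ± 0.12 and -0.14 ± 0.13 (0.797 and 0.807), and Selenoi 0.19 ± 0.14 and 0.26 ± 0.15 (0.786 and 0.679).

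Transsulfuration and serine breakdown had 6 measured genes, 3 with lower means in knockout and 4 in fat rescue (medians -0.01 and -0.07). Cbs, which condenses serine with homocysteine, differed by -0.03 ± 0.21 and -0.39 ± 0.23 (adjusted p = 0.987 and 0.679), Cth by 0.24 ± 0.37 and -0.66 ± 0.40 (0.903 and 0.695) and Gclc by 0.14 ± 0.11 and 0.07 ± 0.11 (0.791 and 0.915). The list of ATF4 and the amino acid response, whose factor is known to induce Phgdh, Psat1 and Shmt2 when amino acids are short, had 17 measured genes. Of these 10 had lower means in knockout and 8 in fat rescue (medians -0.05 and 0.07). Atf5 differed by -0.12 ± 0.09 and 0.20 ± 0.09 (adjusted p = 0.764 and 0.619) and Cebpb by -0.07 ± 0.12 and -0.42 ± 0.13 (0.917 and 0.474). Vldlr, a lipoprotein receptor, differed by -0.56 ± 0.15 and -0.62 ± 0.16 (0.479 and 0.397); it was among the genes named in earlier results of these arrays.

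The genes whose signal over the 11 arrays was most like that of Serinc3 were Clmn (Pearson's r = 0.909 on the log2 scale), Pak2 (0.885), Zfp277 (0.867), Ptpru (0.864), Smim19 (0.861) and Baz1a (0.851). Phgdh ranked 9 of 12708 by this measure (r = 0.835), and the other members ranked between 1093 and 9259. Genes that differ between wild type and both lines will rank high, since the 11 points fall into those groups. Most opposed were Sdc4, which encodes syndecan-4 (r = -0.955), Rnf113a1 (-0.918) and Vcpkmt (-0.903). For Phgdh the most alike were Rbp4, the retinol carrier secreted by fat (0.930), Tmem45b (0.911), Rfng (0.880), Vti1b (0.872), Adprhl2 (0.867) and Snx3 (0.867), and the most opposed Zzz3 (-0.923), Mier3 (-0.921) and Sdc4 (-0.896). Rbp4 read 6857 to 8506 in wild type, 4828 to 6455 in knockout and 4870.5 to 5893 in fat rescue. Of the genes most like Serinc3, Clmn, Zfp277 and Baz1a lie on chromosome 12, as does Bdkrb1. Vcpkmt, opposed to Serinc3, and Vti1b, like Phgdh, lie on chromosome 12 as well, and the others named lie elsewhere. The share of all measured genes on chromosome 12 was not counted, so these positions cannot be read as an excess. The part of these positions in the likeness was not tested.

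Sdc4 lies on chromosome 2, as does Serinc3, with 13 measured genes between them in the gene order of GRCm38.p6. Its signal was 696.5, 176.5, 193.9 and 313.3 in the wild-type arrays, 1299.4, 1662.7, 1567.2 and 1810.6 in the knockout arrays and 1671.9, 1977.6 and 1637.1 in fat rescue. Array 1 was the highest of wild type and the lowest of knockout for Sdc4, and the lowest of wild type and the highest of knockout for Serinc3 probe sets 1455550_x_at and 1434548_at. The 5 nearest measured genes on each side of Serinc3 gave no call in any comparison, with 5 of 10 lower in knockout and 6 of 10 in fat rescue (medians 0.03 and -0.11). The widest gap among them was that of Gm16316, a long noncoding RNA gene that is the second measured gene beside Serinc3. It read 53.8, 7.20, 15.2 and 3.10 in the wild-type arrays, 59.1, 90.9, 130.5 and 81.8 in the knockout arrays and 132.5, 38.1 and 127.7 in the fat rescue arrays. The knockout arrays lay above all wild-type arrays, while fat rescue array 2 lay below wild-type array 1. These differences of 2.90 ± 0.71 and 2.89 ± 0.77 did not pass (adjusted p = 0.424 and 0.397 with limma), and the low wild-type signals make them no exact sizes. The neighbours of Phgdh on chromosome 3 gave differences between -0.22 and 0.25 from wild type, with no call.

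A wider window, of 25 measured genes on each side, was chosen after these values were seen. It took in Sdc4, already known to differ, so its count of higher genes supports nothing by itself. Around Serinc3, both lines lay wholly above wild type in 2 of 50 genes (Sdc4 and Sgk2, the latter dim) and wholly below it in 0, where 0.677% and 0.708% of all genes did. Around Phgdh both counts were 0 of 50. Serinc3 was chosen for low means in both lines. Beside a share of 0.708%, a count of 0 of 50 lower genes does not set it apart from its window.

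**Figure D5:**
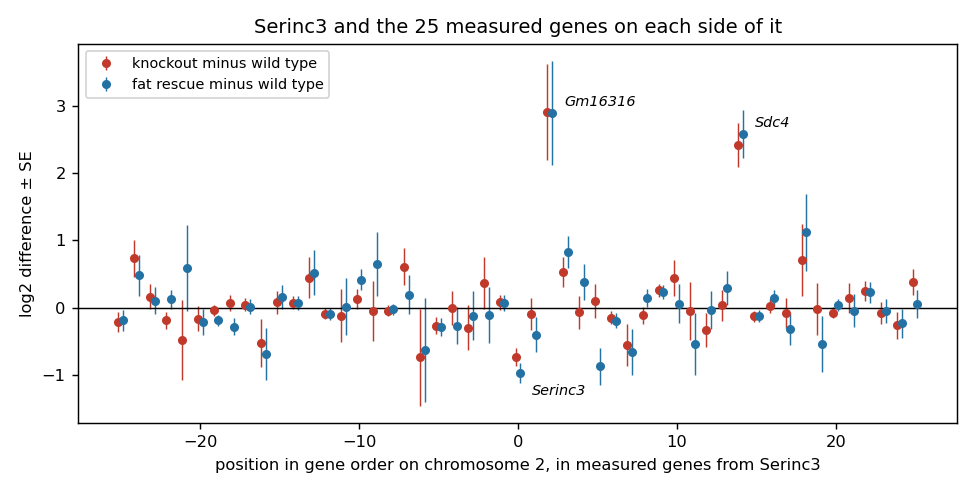
Log2 differences (± SE) of Serinc3 and the 25 measured genes on each side of it in gene order on chromosome 2; the x axis counts measured genes from Serinc3 and the y axis gives knockout minus wild type (red) and fat rescue minus wild type (blue). Serinc3 (-0.73 and -0.97), Gm16316 (2.90 and 2.89) and Sdc4 (2.42 and 2.58) are named.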

How the data were processed

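Each of the 11 RNA samples of epididymal fat was measured on its own one-colour Affymetrix array. The values deposited by the authors are linear intensity values, for which the submitters' processing notes name GCOS 1.3 and MAS5; detection calls were not used here, and a genome build is not given in the sources used here. There was 1 value of 0, which was raised to 0.1 ahead of the log2 step.

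Of 45101 probe sets 64 were controls, and 34945 had 1 symbol, 932 several and 9160 none. The upper 60% by mean log2 signal were kept (27022; lowest geometric mean signal 23.7), and the brightest of these stood for each gene (12709 genes). All arrays were fitted in 1 model with limma 3.58.1 (eBayes with trend, R 4.3.3) with genotype as the factor, two-sided, and Benjamini-Hochberg adjustment over all genes. Single probe sets that do not represent their gene were fitted over all probe sets. The fit was tested on simulated data.

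Members, lists and tests were chosen with earlier results of these data known. Calls were counted over the 6 members not chosen for their differences; the planned count took in all measured members, and was narrowed after its values had been seen. Named are every member; for each list the 3 measured genes with the smallest unadjusted p in either comparison with wild type; the 6 genes most like and the 3 most opposed to Serinc3 and to Phgdh; and genes beside them. Alternatives were other normalizations, log2(value + 50), filters, probe set summaries, variance models, array weights, the groups compared only, the replicate number as a block, and leaving out arrays. The labels give no batch, and correlations of same-numbered arrays' deviations ran from -0.14 to 0.345; those of number 1 were positive in all 3 comparisons, but not every pair was above 0.1, so arrays were not treated as paired.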

Additional observations from a re-analysis of the deposited data

Results flagged for a closer look

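In 58 groups of 4 arrays (29 probe sets in wild type and in knockout), 4 had an array whose log2 signal stood apart from the other 3, where chance gives about 1 in 20. All 4 were in wild type. Array 1 was low for the Serinc3 probe set 1434548_at, at 411.5 against 785.7 to 820.7 in the others. Array 2 was high for Serinc5 (107.7 against 82.7 to 84.7) and for the Psat1 probe set 1454607_s_at (1498.2 against 1063.0 to 1125.9). Array 3 was low for the Serinc1 probe set 1454811_a_at, at 1255.6 against 1438.7 to 1475.0.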

How the results depend on the processing

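Each comparison was recomputed under 24 alternatives; leaving out both arrays that stood apart was chosen after seeing the data. Of the 6 members that carry a test, 0 were called in all 24 in each of the 3 comparisons, those without single arrays included. With a replicate block the count was 0 in every comparison, and the block changed no call of these 6; Serinc3 then lay at -0.734 in knockout and -1.003 in fat rescue relative to wild type. Median centring moved the median of all genes from 0.02 to -0.13 (knockout minus wild type) and from 0.03 to -0.07 (fat rescue minus wild type). Serinc3 and Phgdh kept their direction against wild type in all 24, Serinc3 from -1.01 to -0.65 in knockout and -1.24 to -0.90 in fat rescue, Phgdh from -0.66 to -0.45 and from -0.56 to -0.39. Serinc4 shrank to -0.53 (fat rescue minus knockout) and -0.38 (fat rescue minus wild type) with log2(value + 50).

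The sign turned only for small differences of genes that were not called. For knockout minus wild type, quantile normalization gave Serinc1 0.063, Serinc5 -0.004, Psat1 0.016 and Shmt1 -0.044, and median centring gave Serinc5 -0.047 and Shmt1 -0.078. Averaging probe sets within genes gave Shmt1 -0.269 and Shmt2 -0.055. Without both arrays that stood apart, Serinc1 was 0.028, Psat1 0.017 and Shmt2 -0.018. For fat rescue minus knockout, the replicate block gave Serinc5 0.008 and Shmt2 0.039, centring gave Shmt2 0.016, the mean of probe sets gave Shmt1 0.248, and Shmt2 was 0.098 without both arrays. For fat rescue minus wild type, quantile normalization gave Serinc5 -0.047 and Shmt1 -0.092. Centring gave Serinc1 -0.070, Serinc5 -0.056, Psph -0.063 and Shmt1 -0.087. The mean of probe sets gave Shmt1 -0.021 and Shmt2 -0.059, array weights gave Shmt1 -0.001, and Shmt1 was -0.058 without both arrays. The cause of these turns was not tested.

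Leaving out single arrays, knockout minus wild type ranged from -0.097 to 0.028 for Serinc1, -0.050 to 0.253 for Serinc5, -0.100 to 0.045 for Psat1, -0.044 to 0.191 for Shmt1 and -0.018 to 0.312 for Shmt2. Fat rescue minus knockout ranged from -0.207 to 0.096 for Serinc5, -0.176 to 0.082 for Shmt1 and -0.177 to 0.098 for Shmt2, and from -0.017 to 0.102 for Phgdh. Fat rescue minus wild type ranged from -0.034 to 0.091 for Serinc1, -0.054 to 0.138 for Serinc5, -0.185 to 0.230 for Psph, -0.071 to 0.154 for Shmt1 and -0.049 to 0.297 for Shmt2. Serinc2 lay below the array median in every array and Serinc4 in every fat rescue array, which limits what can be seen of them.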
